A study of Homo sapiens with 4 samples.

Results

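Divergent bidirectional promoters are stretches of DNA that start 2 genes, on opposite strands, whose transcripts run away from each other. The members were the pairs of protein-coding genes with start sites at most 1 kb apart in GENCODE on hg19, and a region belonged to a pair if it overlapped the span between the start sites with 500 bp added on each side. Of 20162 coding genes, 1885 (9.35%) formed 978 such pairs at 908 separate loci. A region is a stretch in which peaks of any of the 3 deposited lists overlap by at least 1 bp. 854 of the 33834 regions lay at a divergent pair, and 921 of the 978 pairs had at least 1 region. 66 regions held more than 1 pair, and 137 pairs shared a locus with another pair, so pairs are not independent of each other.

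The libraries are H3K27ac ChIP-seq of K562, an established human erythroleukaemia line. The first group carried TFAM hairpin 1 (TFAM-sh1), the second TFAM hairpin 2 (TFAM-sh2), and the third the non-targeting control hairpin (shNT). TFAM coats mitochondrial DNA and helps to initiate transcription from it, and the study asked how its depletion changes this acetylation mark. Each group is 1 library, so no difference between groups has a replicate check, and hairpin and library cannot be told apart.

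Both comparisons use the 1 control library. The lists held 23819 peaks for hairpin 1, 27007 for hairpin 2 and 23413 for the control. The sources used here do not give read depths. Of 14 genes used as K562 markers, 7, 6 and 8 had a peak within 500 bp of the start site in the hairpin 1, hairpin 2 and control lists. GATA1, KLF1, NFE2, HBE1, HBG1 and HBG2 had none in any list. Of 9 markers of other lineages, 3, 2 and 1 had one. None of these markers is a gene of a divergent pair.

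Divergent promoters are common among housekeeping genes of DNA repair, mitochondria and RNA processing. They are usually rich in CpG dinucleotides and poor in TATA boxes, and binding sites of ETS factors such as GABP and of NRF1 are frequent in them. Acetylation of lysine 27 on histone H3 marks nucleosomes on both sides of an active start site, so at a divergent promoter it can lie over the starts of both genes.

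The sequences between the start sites of selected pairs are shown first. They are GRCh37 plus-strand sequence, so the minus-strand gene, named first, starts just left of each sequence and the plus-strand gene just right of it. Capitals mark letters of a searched motif on either strand. The letters searched for were CCGGAAG for the ETS family, whose members include GABP, and GCGCATGC for the factor NRF1. The CCAAT-box factor NFY was searched by CCAAT, and the SP family of zinc finger factors by its GC box, GGGCGG. AAGATGGCG stood for the factor YY1, TGACGTCA for the cAMP response element (CRE), and ACTACAATT for the core of the ZNF143 motif. The TATA box, where the general transcription machinery is positioned, was searched by TATAAA. Neighbouring matches may overlap. A match describes the letters and is no evidence of binding.

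The first set is 5 short promoters with ETS letters and a peak in every list, 4 of them serving mitochondrial genes and 1 a deacetylase whose peak was wider with both hairpins. They lie at chr10:102747255-102747299 (MRPL43/TWNK), chr14:78174367-78174445 (ALKBH1/SLIRP), chr21:27107216-27107282 (ATP5PF/GABPA), chr1:46769289-46769369 (LRRC41/UQCRH) and chr19:4182561-4182685 (SIRT6/ANKRD24).
MRPL43/TWNK: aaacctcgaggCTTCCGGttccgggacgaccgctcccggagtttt
ALKBH1/SLIRP: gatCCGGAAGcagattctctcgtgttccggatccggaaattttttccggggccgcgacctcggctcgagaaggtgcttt
ATP5PF/GABPA: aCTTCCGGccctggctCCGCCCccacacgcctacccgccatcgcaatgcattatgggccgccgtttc
LRRC41/UQCRH: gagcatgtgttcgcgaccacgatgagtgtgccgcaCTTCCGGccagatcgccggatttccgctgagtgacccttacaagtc
SIRT6/ANKRD24: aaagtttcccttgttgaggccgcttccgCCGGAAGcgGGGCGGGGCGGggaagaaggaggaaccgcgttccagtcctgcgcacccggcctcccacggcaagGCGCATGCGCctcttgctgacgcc

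The second set is 3 histone promoters that differed in the lists that held a peak. They lie at chr1:149858233-149858467 (H2BC21/H2AC20, every list), chr6:27775708-27775950 (H2BC13/H2AC13, both hairpins only) and chr6:27806154-27806346 (H2AC15/H2BC15, not in hairpin 2). The first and second carry TATA letters near each end with CCAAT letters between them, and the third carries only CCAAT letters.
H2BC21/H2AC20: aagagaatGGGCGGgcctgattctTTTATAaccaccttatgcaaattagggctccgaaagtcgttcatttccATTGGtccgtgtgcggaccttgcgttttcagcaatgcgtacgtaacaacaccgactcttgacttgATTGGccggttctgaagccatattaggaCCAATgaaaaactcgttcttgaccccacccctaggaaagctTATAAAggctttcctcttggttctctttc
H2BC13/H2AC13: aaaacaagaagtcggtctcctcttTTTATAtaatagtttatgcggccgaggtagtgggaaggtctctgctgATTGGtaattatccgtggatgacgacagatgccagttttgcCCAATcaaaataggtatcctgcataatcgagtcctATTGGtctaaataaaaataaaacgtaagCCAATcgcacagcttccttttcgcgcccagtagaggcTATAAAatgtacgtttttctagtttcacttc
H2AC15/H2BC15: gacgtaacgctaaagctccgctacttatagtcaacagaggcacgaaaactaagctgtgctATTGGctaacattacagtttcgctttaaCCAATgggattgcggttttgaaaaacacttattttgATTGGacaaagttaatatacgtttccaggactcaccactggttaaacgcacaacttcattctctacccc

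The last set is 4 promoters at the ends of the comparison. CNGA1/NIPAL1 (chr4:48018699-48018788) had a peak with both hairpins and none in the control, PI4KA/SNAP29 (chr22:21213100-21213294) had one in the control alone, C11orf71/RBM7 (chr11:114271234-114271387) was narrower with both hairpins, and DCST2/DCST1 (chr1:155006258-155006299) had no peak and holds no CpG.
CNGA1/NIPAL1: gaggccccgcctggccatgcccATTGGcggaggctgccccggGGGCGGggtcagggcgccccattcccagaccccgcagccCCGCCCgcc
PI4KA/SNAP29: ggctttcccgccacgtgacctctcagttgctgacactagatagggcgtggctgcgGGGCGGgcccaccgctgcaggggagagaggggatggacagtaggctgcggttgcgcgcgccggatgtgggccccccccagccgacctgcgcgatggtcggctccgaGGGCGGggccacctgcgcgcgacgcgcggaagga
C11orf71/RBM7: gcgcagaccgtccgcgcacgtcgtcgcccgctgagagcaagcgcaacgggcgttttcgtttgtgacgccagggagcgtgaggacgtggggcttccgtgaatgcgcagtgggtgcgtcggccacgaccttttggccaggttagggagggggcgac
DCST2/DCST1: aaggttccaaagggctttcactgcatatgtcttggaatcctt

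Nearly every divergent promoter carried H3K27ac in K562, and nearly every one did so with either hairpin and in the control. A peak was found at 909 of 978 pairs (92.9%) in hairpin 1, at 907 (92.7%) in hairpin 2 and at 904 (92.4%) in the control, with exact Clopper-Pearson 95% intervals of 91.2% to 94.5%, 90.9% to 94.3% and 90.6% to 94.0%. The intervals cover counting error only and treat pairs as independent. The shares come from the same 978 pairs, so overlap of the intervals does not test a difference between lists. Start sites of coding genes with a divergent lncRNA partner were marked in 76.3%, 76.6% and 75.3% of cases, in the order hairpin 1, hairpin 2, control. Coding start sites with no divergent partner were marked in 47.2%, 47.4% and 46.2%.

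The pairs just inside the 1 kb limit were SMIM7/TMEM38A at 995 bp, HNRNPA2B1/CBX3 at 999 bp and ATP6V1G2/NFKBIL1 at 1000 bp. Those just outside, which were not members, were ABHD14B/ABHD14A-ACY1 at 1011 bp, ABHD14B/ABHD14A at 1015 bp and USH1G/OTOP2 at 1018 bp, and they too had a peak in each list. The median distance between the start sites of members was 233 bp.

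Of the 854 regions at divergent pairs, 823 (96.4%, interval 94.9% to 97.5%) held a peak in all 3 lists. The share was 90.7% of 1454 regions at coding genes with a lncRNA partner, 84.5% of 7909 regions at other coding start sites and 34.1% of 23617 regions at no coding start site. The remaining 31 regions were spread over every combination of lists. The median score percentile of peaks within the list at divergent pairs, over regions in all lists, was 82.6, 84.3 and 82.5 in hairpin 1, hairpin 2 and control. It was 82.0, 83.9 and 80.0 at lncRNA partners, and 77.7, 80.1 and 75.9 at other coding start sites. Scores are the authors' own and served here only to rank the peaks of a list.

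Among control peaks ranked between the 50th and 75th percentile of score, 211 of 212 at divergent pairs (99.5%) had a peak with both hairpins. The share was 96.5% at lncRNA partners, 94.96% at other coding start sites and 87.5% away from coding start sites. Above the 75th percentile the shares were 99.1%, 99.5%, 99.1% and 96.1% in the same order. Between the 25th and 50th percentile they were 87.5% (48 regions, interval 74.8% to 95.3%), 84.6%, 81.25% and 61.7%. Below the 25th percentile only 11 control regions at divergent pairs remained, of which 8 had a peak with both hairpins. The shares there were 58.5% at lncRNA partners, 58.7% at other coding start sites and 31.9% away from them.

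8 regions (0.937%) had a peak with both hairpins and none in the control, where 5.91% of every region in the series did. 2 regions (0.234%) had a control peak alone, where 7.05% of every region did. 7 regions were absent only from hairpin 1 (7.21% of every region), 6 only from hairpin 2 (4.29%), 6 were seen only with hairpin 1 (9.71%) and 2 only with hairpin 2 (16.0%). Each share at divergent pairs is below that over every region. So are the shares at lncRNA partners and at other coding start sites. A peak with both hairpins and none in the control was in 1.93% and 2.73% of their regions. A control peak alone was in 0.963% and 1.63%. With hairpin 1 alone set against the control, 14 regions were gained (15.6% of every region) and 9 lost (14.3%). With hairpin 2 alone 10 were gained (21.9% of every region) and 8 lost (11.3%).

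These counts depended on which peaks were kept. Among the higher-scoring 50% of each list, 29 regions at divergent pairs had a peak with both hairpins and none in the control, and 3 the reverse, where 6.64% and 5.42% of every such region in the series did. Of the 29, 28 had a lower-scoring control peak, and 1 of the 8 gained regions was among them.

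**Figure D1:**
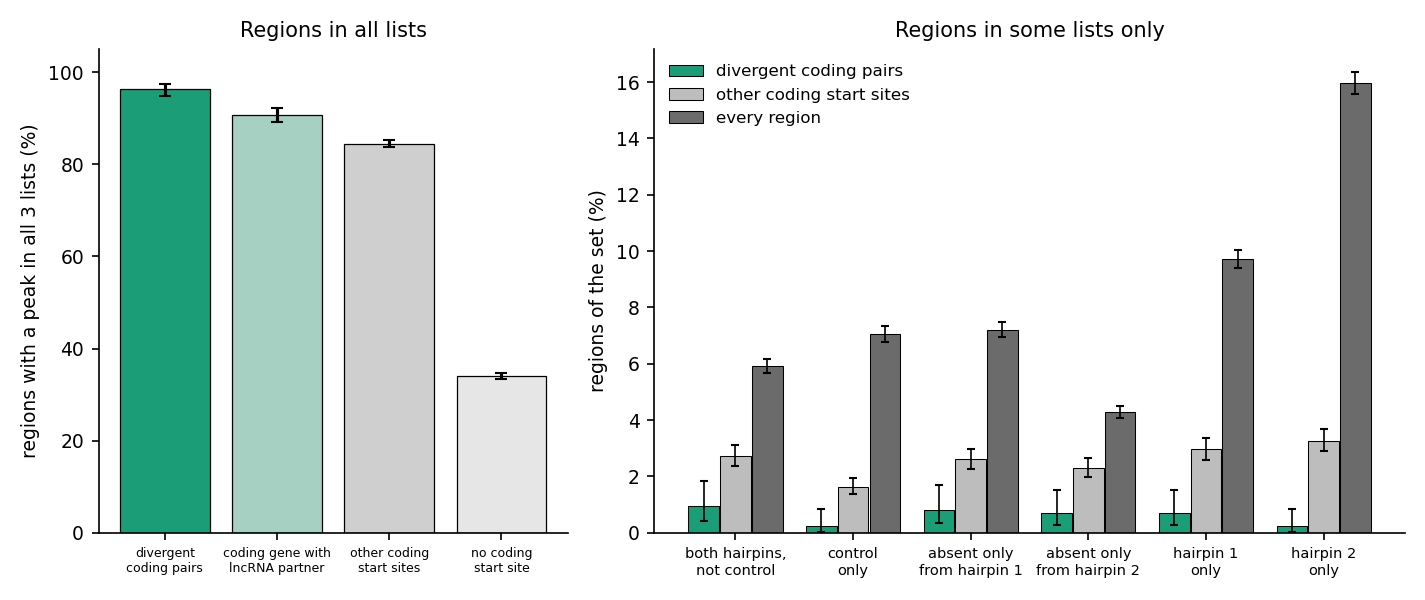
Left, percent of regions with a peak in all 3 lists, by promoter set. Right, percent of regions in each other combination of lists, for divergent pairs, other coding start sites and every region. Bars are shares and lines are exact 95% intervals (counting error only). Divergent pairs reach 96.4% on the left and stay below 1% in each class on the right.

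The 8 regions gained with both hairpins held 1 pair each. Among them were 4 with peaks above 5 kb. INTS9/HMBOX1, of a subunit of the Integrator complex and a telomere-binding homeobox protein, had 7500 bp covered in hairpin 1, 7378 bp in hairpin 2 and none in the control. CCDC115/IMP4, of a proton pump assembly factor and a ribosomal RNA processing protein, had 7501, 7889 and 0 bp in the same order. TLN1/CREB3, of the integrin linker talin and a membrane-bound transcription factor, had 8523, 7872 and 0 bp.

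These wide peaks had low to middling scores. The percentiles in hairpin 1 and hairpin 2 were 25.6 and 41.4 for INTS9/HMBOX1, 11.8 and 6.84 for CCDC115/IMP4, and 2.82 and 30.8 for TLN1/CREB3, so none of the 3 pairs had a peak among the higher-scoring 50% of any list. With lists of equal length, the mean hairpin excess over the control at CCDC115/IMP4 was 3750.5 bp in place of 7695 bp. The nearest control peak lay 18254 bp from INTS9/HMBOX1, 12193 bp from CCDC115/IMP4 and 15406 bp from TLN1/CREB3. The fourth wide one, H2BC13/H2AC13 (243 bases shown above), covered 5405 bp in hairpin 1 and 8520 bp in hairpin 2, against none in the control, at percentiles of 62.8 and 21.3. Histone genes have near-identical copies, and only reads that fitted 1 place were kept, so their values are uncertain.

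The other 4 gained regions had peaks under 4 kb. ZFYVE28/CFAP99, of an endosomal regulator of receptor breakdown and a cilia protein, covered 3423, 3166 and 0 bp in hairpin 1, hairpin 2 and control. GGN/SPRED3, of a germ cell protein and an inhibitor of RAS signalling, covered 1464, 1666 and 0 bp. FBXO2/FBXO44, both F-box subunits of ubiquitin ligases, covered 1496, 691 and 0 bp. Of the gained pairs, ZFYVE28/CFAP99 kept its hairpin excess of 3294.5 bp among the higher-scoring 50%.

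CNGA1/NIPAL1, of a rod photoreceptor channel and a magnesium transporter, had the smallest gained peaks, 856 and 472 bp in the hairpin lists and none in the control. Its peaks ranked at the 7.16 and 4.27 percentiles of their lists. The nearest control peak was 101070 bp away.

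Of the 2 regions with a control peak alone, 1 is described here. PI4KA/SNAP29, of a phosphoinositide kinase and a SNARE protein of membrane fusion, had no peak in hairpin 1 or hairpin 2 and 5355 bp in the control, at the 80.5 percentile of score. The nearest peak lay 17428 bp away in hairpin 1 and 17236 bp away in hairpin 2.

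The score percentiles of pairs missing from a single hairpin list varied widely. SAFB2/SAFB, of scaffold attachment proteins, covered 3928 bp in hairpin 1, none in hairpin 2 and 4060 bp in the control, at the 95.6 and 95.5 percentiles in the lists that held it. HSPA1L/HSPA1A, of HSP70 chaperones with near-identical copies, covered 5913, 0 and 6082 bp in the same order, at percentiles of 63.2 in hairpin 1 and 47.3 in the control. Among the higher-scoring 50% its control peak is left out, and the mean hairpin difference of -3125.5 bp turns to 2956.5 bp. HCFC1/TMEM187, of the host cell factor that docks chromatin enzymes, covered 7038, 0 and 4117 bp, at percentiles of 63.3 and 90.1.

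RPL18/SPHK2, of a large ribosomal subunit protein and a nuclear sphingosine kinase, was missing from hairpin 1, with 0, 4220 and 3684 bp. HPS4/SRRD covered 0, 6608 and 3965 bp, with no peak among the higher-scoring 50%. In both pairs hairpin 2 had the widest peak. The plot of covered base pairs shows these pairs side by side.

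**Figure D2:**
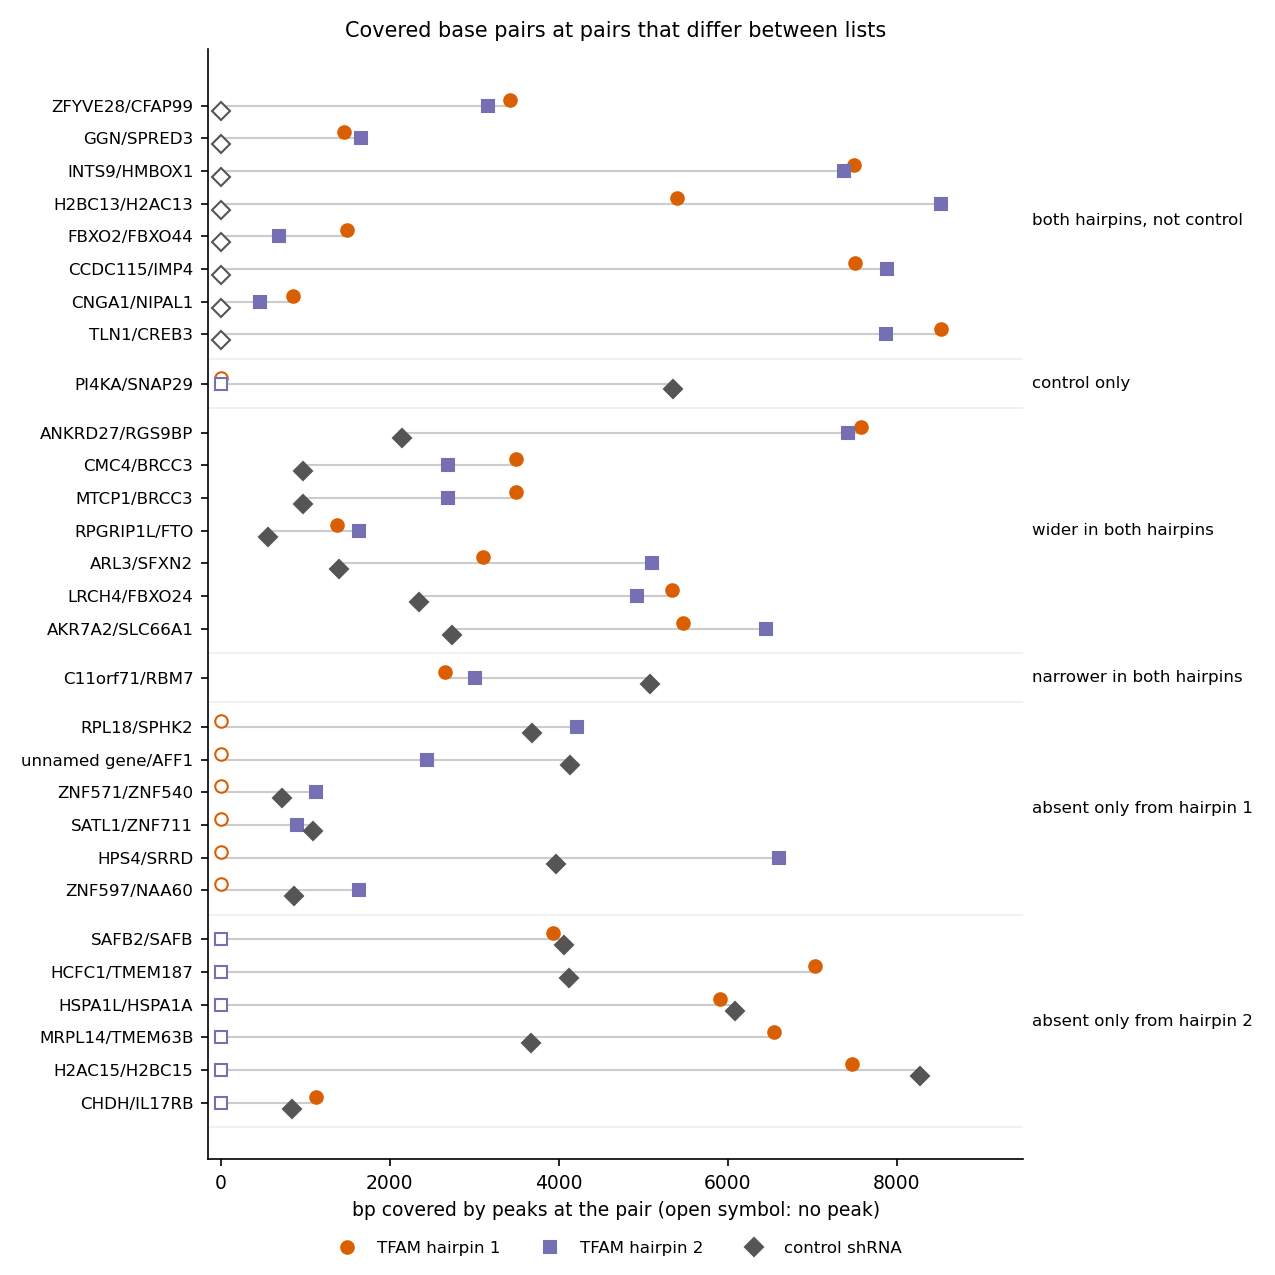
Base pairs covered by peaks (horizontal axis) at pairs that differ between lists, grouped by kind of difference. Circles are hairpin 1, squares hairpin 2 and diamonds the control, and an open symbol at 0 is no peak. The gained pairs run up to 8523 bp, and PI4KA/SNAP29, with a control peak alone, holds 5355 bp.

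Pairs in some lists only had larger shares at both ends of width than pairs in all lists. Of the 32 such pairs, 14 (43.8%) had a widest covered length of 5 kb or more and 9 of 7 kb or more. Another 11 (34.4%) had under 2 kb. Among the 889 pairs in all lists, 132 (14.8%) reached 5 kb and 51 (5.74%) had under 2 kb. No list held a peak above 8781 bp (hairpin 1), 8841 bp (hairpin 2) or 8704 bp (control).

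Scores were low at the widest peaks. At divergent pairs, peaks of 3 to 4 kb had median score percentiles of 86.2, 88.3 and 88.9 in hairpin 1, hairpin 2 and control, and peaks of 7 kb or more had 26.1, 42.6 and 33.8, over 16, 22 and 9 peaks. The same held for every peak, at 26.7, 32.8 and 26.6 for 7 kb or more. The part of peak width in these presence calls was not tested.

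Widths at the 823 regions in all lists were close to the control with hairpin 1 and slightly larger with hairpin 2. The median covered length was 2948 bp in hairpin 1, 3231 bp in hairpin 2 and 2874 bp in the control. The median log2 ratio over control was 0.04 for hairpin 1 and 0.15 for hairpin 2, against 0.06 and 0.11 at other coding start sites. The control was the narrowest list in 394 regions (47.9%) and hairpin 2 the widest in 460 (55.9%), where the shares over every region in all lists were 42.6% and 45.4%.

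22 regions (2.67%), holding 25 pairs, were at least 1.5-fold wider with both hairpins, where 7.21% of every region in all lists was. 1 region, with 2 pairs, was at least 1.5-fold narrower with both, where 2.20% of every region in all lists was. The wider share was 3.34% at lncRNA partners and 4.91% at other coding start sites. With hairpin 1 alone, 39 regions were wider (4.74%, against 13.3% of every region) and 23 narrower (2.79%, against 9.70%). With hairpin 2 alone, 78 were wider (9.48%, against 16.7% of every region) and 6 narrower (0.729%, against 5.91%). 4 regions were at least 2-fold wider with both hairpins (2.48% of every region), and 13 passed 1.5-fold among the higher-scoring 50% of peaks (2.56% of every region there).

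For a single pair, covered length was counted over the peaks that overlap its span with 500 bp on each side, and 28 pairs were wider. 3 of them, ANKRD27/RGS9BP, ARL3/SFXN2 and AAMP/PNKD, lay in regions that did not pass the call. By the smaller of the hairpin ratios the pair with the largest ratio was ANKRD27/RGS9BP, of an endosomal trafficking protein and a photoreceptor membrane anchor, with 7583 bp in hairpin 1, 7429 bp in hairpin 2 and 2146 bp in the control (log2 ratios 1.82 and 1.79). A second control peak in its region brings the control to 5650 bp, and none of its peaks is among the higher-scoring 50%. BRCC3, a deubiquitinase of DNA damage and interferon receptor complexes, shares its promoter with CMC4 and MTCP1, and the region covered 3491, 2693 and 979 bp. RPGRIP1L/FTO, of a protein of the ciliary gate and an RNA demethylase, covered 1372, 1642 and 564 bp. Its control peak ranked at the 4.46 percentile of its list, against 53.2 in hairpin 1 and 63.3 in hairpin 2.

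ARL3/SFXN2, of a ciliary GTPase and a mitochondrial sideroflexin, covered 3102, 5101 and 1400 bp in the order hairpin 1, hairpin 2, control, and with a second peak of its region the control has 3841 bp. LRCH4/FBXO24 covered 5346, 4928 and 2343 bp, and AKR7A2/SLC66A1 covered 5469, 6457 and 2741 bp. At the pair itself both hairpins exceeded the control in each of these, which is the rule by which they were chosen.

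C11orf71/RBM7, of which RBM7 targets RNA to the nuclear exosome, was the narrower pair. It covered 2659 bp in hairpin 1, 3011 bp in hairpin 2 and 5079 bp in the control (log2 ratios -0.93 and -0.75). Its score percentiles were 98.4, 98.9 and 81.9, so the narrower hairpin peaks ranked above the wider control peak.

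Width ratios moved with base composition. With the regions in all lists cut into 5 equal groups by G+C, the poorest group (30.1% to 44.03%) had a median log2 ratio at divergent pairs of -0.19 for hairpin 1 and 0.02 for hairpin 2 (66 regions). In the richest group it was 0.21 and 0.30 (146 regions). At other coding start sites the same groups gave -0.26 and -0.06, then 0.20 and 0.20. The part of G+C in the width differences was not tested.

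The peaks spanned both start sites. Of the 889 pairs in all lists, both start sites lay under a peak in 871 (98.0%) in hairpin 1, 866 (97.4%) in hairpin 2 and 857 (96.4%) in the control, and 840 pairs (94.5%) had both covered in every list. In 823 pairs a single peak covered both start sites in each list. The 6 pairs named for leaving the same start site uncovered in every list were TMEM276/KIFC2 (KIFC2 uncovered), PURG/WRN (PURG), BSCL2/GNG3 (GNG3), ATP6V1G2/NFKBIL1 (ATP6V1G2), DOCK4/ZNF277 (DOCK4) and TOM1L2/DRC3 (DRC3). In the control, the BSCL2/GNG3 peak lay 289 bp from the nearer start site, so it covered neither. Some uncovered start sites lay close to a control peak. That peak began at base 111846456 beside DOCK4, which starts at 111846454, and at 30890899 beside PURG, which starts at 30890872.

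GNG3 and ATP6V1G2 encode neuronal isoforms of a G protein subunit and of a proton pump subunit. WRN, the helicase lost in Werner syndrome, was covered while PURG was not. At PURG/WRN the peaks spanned 2487 bp in hairpin 1, 2920 bp in hairpin 2 and 3004 bp in the control.

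Past each start site of a divergent pair, both sides pooled, peaks extended a median of 1329.5 bp in hairpin 1, 1468.5 bp in hairpin 2 and 1294 bp in the control. The sides of a pair were unequal. The longer side had a median of 1588, 1726 and 1508 bp and the shorter 1113, 1249 and 1111 bp, and they differed by 1 kb or more in 14.7%, 20.2% and 15.4% of pairs. At coding start sites with no divergent partner the peak extended 1406, 1560 and 1356.5 bp downstream into the gene and 1000, 963 and 959 bp upstream. Genes with a lncRNA partner had 1461, 1639 and 1452 bp downstream and 1270, 1290 and 1250 bp upstream.

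At a divergent pair each outer edge is the downstream edge of a gene. With hairpin 2 the downstream edges moved by similar amounts in each promoter type, and the upstream edges moved less. Against the control, the median edge at divergent pairs lay 126 bp further out on the minus-strand side and 129 bp on the plus-strand side. At other coding start sites the downstream edge lay 153 bp further out and the upstream edge 2.5 bp further in. With lncRNA partners the downstream edge lay 150 bp and the upstream edge 27 bp further out.

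With hairpin 1 the shifts were small in each set, 35 and 24 bp outward at divergent pairs and 32 bp upstream and 35 bp downstream at other coding start sites. Both edges lay further out than in the control in 33.9% of 823 divergent pairs with hairpin 1 and in 47.5% with hairpin 2, against 34.4% and 37.2% at other coding start sites. Both lay further in at 26.1% and 13.4% of divergent pairs, against 24.0% and 18.5% at other coding start sites. Both edges are downstream at a divergent pair, but an upstream edge is counted at other coding start sites, so these shares compare unlike edges. With 1 library for each hairpin, the difference between hairpins was not tested.

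**Figure D3:**
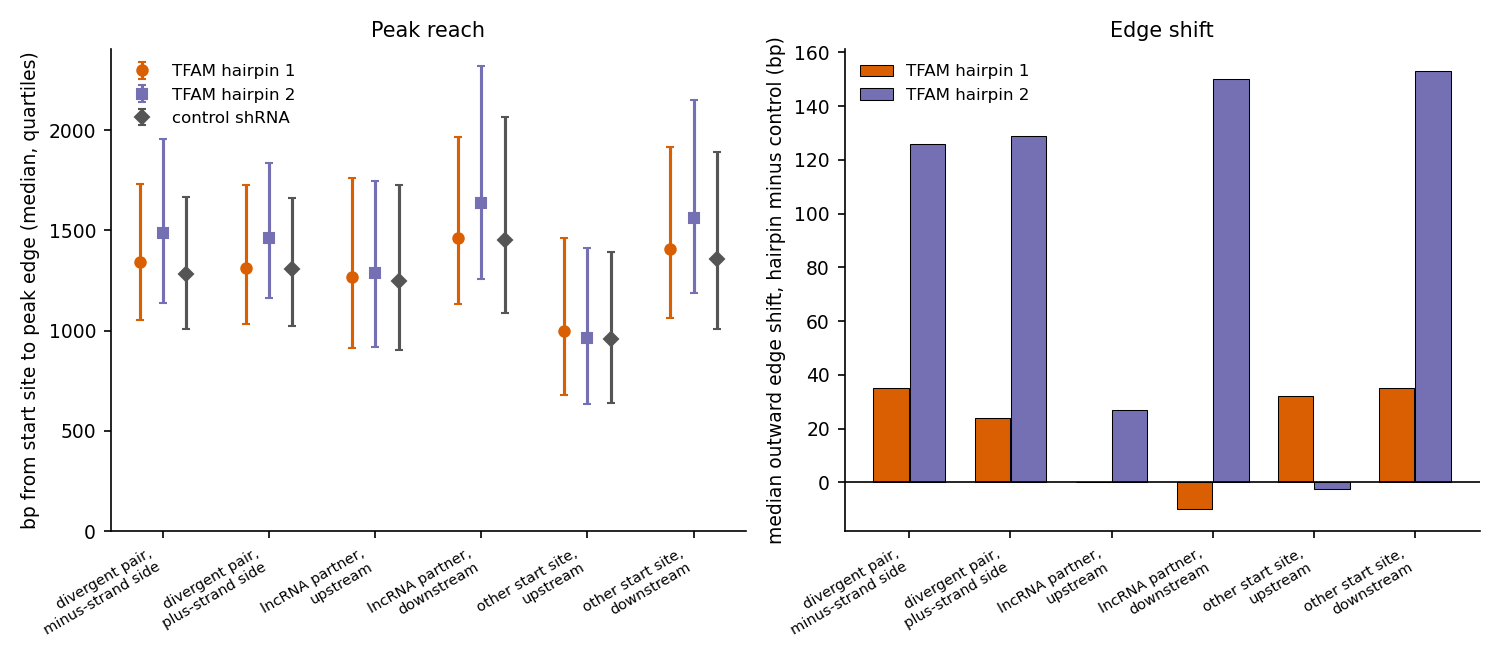
Left, base pairs from start site to peak edge in hairpin 1, hairpin 2 and control, as medians with quartiles. Right, median shift of the same edge, hairpin minus control, with outward positive. Hairpin 2 shifts both edges of divergent pairs, each a downstream edge, by 126 and 129 bp. At other coding start sites it shifts the downstream edge by 153 bp and the upstream edge by -2.5 bp.

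Which gene had the longer block was alike across lists. The side with the longer reach was the same in hairpin 1 and control in 668 of 821 pairs (81.4%), in hairpin 2 and control in 636 of 822 (77.4%), and in all 3 lists in 569 of 823 (69.1%). These counts share the control library in part and describe the lists. The longer side had more CpG in the first 1 kb of its gene in 61.9%, 61.8% and 62.7% of pairs in hairpin 1, hairpin 2 and control. It was the longer gene in 45.4%, 48.1% and 48.2%.

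The most unequal pair was STX10/IER2, of a Golgi SNARE and an immediate early gene, with start sites 36 bp apart. Its peak reached 6704, 6840 and 6043 bp into IER2 and beyond in hairpin 1, hairpin 2 and control, against 841, 1280 and 917 bp on the STX10 side. TUBGCP2/ZNF511 reached 4426, 5452 and 4793 bp on the side of TUBGCP2, a part of the microtubule-nucleating ring, and 690, 325 and 588 bp on the other. FOXL2/FOXL2NB reached 4756, 5047 and 4406 bp on the side of the ovarian factor FOXL2. These pairs were chosen after their values were seen, as the most unequal among 823.

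Letters for ETS factors were frequent at divergent promoters. In windows of 300 bp centred between the start sites, 32.2% of 889 pairs in all lists held CCGGAAG, against 15.8% of the 57 pairs in no list. Of windows of the same length at coding start sites, from 250 bp before to 50 bp after, 14.0% held it over every coding start site and 20.6% over start sites with no divergent partner and a peak in all lists. In that same window, 33.5% of the 1704 start sites of divergent pairs with a peak in all lists held it, though the 2 windows of a close pair share bases.

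The other letters are set beside the same start sites with no divergent partner and a peak in all lists, called marked start sites here. NRF1 letters were in 7.99% of pairs in all lists, 3.51% of pairs in no list, 6.64% of marked start sites and 4.26% of every coding start site. SP letters were in 73.5%, 57.9%, 77.4% and 60.9% in the same order, so pairs were below marked start sites and above every start site. NFY letters were in 40.8%, 40.4%, 35.96% and 35.9%, and CRE letters in 4.27%, 5.26%, 3.65% and 2.68%. YY1 letters were in 5.40% of pairs in all lists and 4.92% of marked start sites, and in none of the 57 pairs in no list, a count whose upper limit is 6.27%. ZNF143 letters were in 12 pairs, each in all lists (1.35%, against 0.687% of marked start sites). The windows of pairs and of start sites are placed differently. In the start-site window, start sites of divergent pairs with a peak in all lists held YY1 letters in 6.87% and NRF1 letters in 7.69%. SP letters were in 74.8% of them, NFY letters in 40.8%, CRE letters in 4.34% and ZNF143 letters in 1.35%.

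TATA letters were less frequent with a peak in all lists than with none, at divergent pairs and at other coding start sites alike. They were in 3.26% of pairs in all lists and 15.8% of pairs in no list. Start sites with no divergent partner had 4.82% with a peak in all lists and 17.3% with none, marked start sites with a lncRNA partner had 3.17%, and every coding start site had 9.80%. In that start-site window, start sites of divergent pairs with a peak in all lists had 2.70%. Of the 43 pairs with TATA letters, 29 (67.4%, interval 51.5% to 80.9%) had a peak in all lists, against 860 of 935 (92.0%) without them. The pairs with TATA letters include histone pairs and had a median G+C of 54.0%, against 64.3% in the others.

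The letters differed in where they lay. The span between the start sites made up 69.3% of the windows on average. It held 92.4% of NFY matches, 79.4% of SP matches, 73.3% of ETS matches and all 12 ZNF143 matches, but 8 of the 50 YY1 matches, the others lying inside a gene. In 84 of the 302 pairs with ETS letters there were at least 2 matches.

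Width ratios were close in pairs with and without ETS letters. Pairs with them had median log2 ratios over control of 0.00 for hairpin 1 and 0.14 for hairpin 2, and pairs without them 0.05 and 0.14. The median CpG observed over expected was 0.885 in pairs in all lists and 0.746 in pairs in no list, where 1 is the value that base composition gives.

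**Figure D4:**
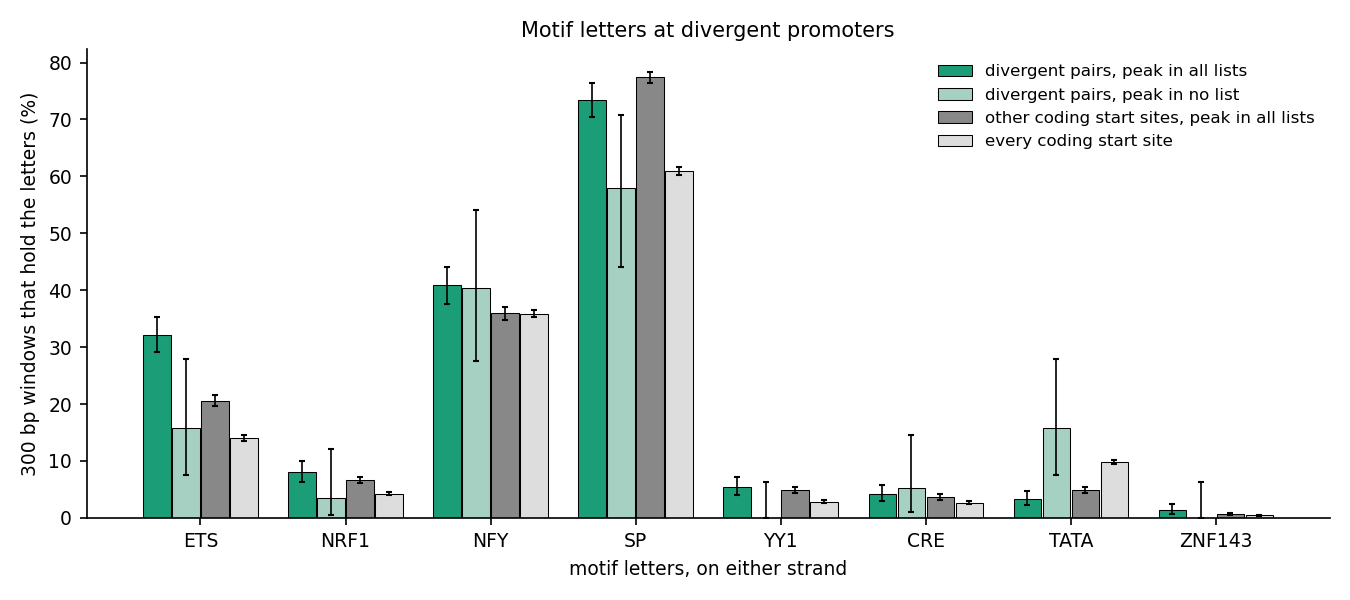
Percent of 300 bp windows that hold the letters of each motif, with exact 95% intervals (counting error only), for divergent pairs with a peak in all lists and in no list, other coding start sites with a peak in all lists, and every coding start site. ETS letters reach 32.2% in the first set, and TATA letters are highest, at 15.8%, in pairs in no list. Windows are centred between the start sites for pairs, and run from 250 bp before to 50 bp after for start sites.

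Over every divergent pair, 889 of 978 (90.9%) had a peak in all lists, and the counts of the gene lists are read beside that share. Of 119 annotated genes of oxidative phosphorylation, 34 (28.6%) were in divergent pairs, where 9.35% of every coding gene is, and all 34 pairs had a peak in each list. None passed the 1.5-fold width call in both hairpins. Their median log2 ratios were 0.11 for hairpin 1 and 0.12 for hairpin 2, against 0.04 and 0.14 over every pair.

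LRRC41/UQCRH, of a complex III subunit, had the most covered bases, over the 3 lists together, of any pair in all lists, with 8533 bp in hairpin 1, 7951 bp in hairpin 2 and 6535 bp in the control. ATP5PF/GABPA joins an ATP synthase subunit with the GA-binding protein alpha chain, an ETS factor, and has ETS letters itself. It covered 4656, 4711 and 3638 bp in the same order. NDUFS1/EEF1B2, of the largest complex I subunit, covered 4064, 4189 and 4073 bp.

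Of 111 genes of the mitochondrial ribosome and translation, 32 were in pairs, and 31 of 32 pairs were in all lists. The exception was MRPL14/TMEM63B, with 6546 bp in hairpin 1, none in hairpin 2 and 3673 bp in the control. All 19 pairs of mitochondrial import and quality control were in all lists, among them HSPD1/HSPE1, the mitochondrial chaperonin and its partner, with 4883, 4842 and 4486 bp. So were all 5 pairs of the citric acid cycle and of acetyl-CoA synthesis, such as STYXL1/MDH2 with 3397, 3859 and 3639 bp, and 4 of 5 pairs of mitochondrial carriers.

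6 pairs held a gene that maintains or transcribes mitochondrial DNA, the process in which TFAM acts. MRPL43/TWNK, of the mitochondrial helicase Twinkle, covered 2192 bp in hairpin 1, 2232 bp in hairpin 2 and 1845 bp in the control. ALKBH1/SLIRP, of a binding protein of mitochondrial RNA, covered 2753, 2955 and 2622 bp. MTERF3/PTDSS1 and MDH1B/FASTKD2 were in all lists too.

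The other two of the 6, TFB2M/CNST and SNX5/MGME1, were in no list. They are named after their values were seen. TFB2M is the transcription factor that works beside TFAM, and MGME1 is a mitochondrial exonuclease. The nearest peak to the TFB2M pair was 58165 bp away in hairpin 1, 20363 bp in hairpin 2 and 20311 bp in the control.

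A list of histone deacetylase, sirtuin and histone acetyltransferase families, which also holds bromodomain proteins such as BRD9 and acetyltransferases of protein ends such as NAA50, formed 9 pairs, 8 of them in all lists. SIRT6/ANKRD24, of a deacetylase of histone H3, was wider with both hairpins, at 2426 bp in hairpin 1, 3382 bp in hairpin 2 and 1558 bp in the control (log2 ratios 0.64 and 1.12). HDAC3/RELL2, of a class I deacetylase, covered 6741, 5056 and 3371 bp, with a log2 ratio of 0.58 for hairpin 2, just under the 1.5-fold call. ZNF597/NAA60 had no peak in hairpin 1, 1641 bp in hairpin 2 and 864 bp in the control.

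Core histones were the list with the smallest share of pairs in all lists. Of 76 annotated histone genes, 22 formed 11 pairs. 3 pairs were in all lists, 1 was gained with both hairpins, 1 was missing from hairpin 2, 2 were in hairpin 1 alone and 4 were in none. Over all 978 pairs the counts were 889, 8, 6, 6 and 57 in the same order. H2BC4/H2AC6 covered 8266 bp and H2AC17/H2BC17 7590 bp in hairpin 1, with no peak in hairpin 2 or control. These 2 pairs were chosen after their values were seen, and their copies make the values uncertain.

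H2BC21/H2AC20 (6058, 6521 and 7184 bp in hairpin 1, hairpin 2 and control) and H2AC25/H2BC26 (3701, 4535 and 4406 bp) were in all lists and lie on chromosome 1. H3C7/H2BC9, on chromosome 6, covered 2329, 5044 and 4818 bp. H2AC15/H2BC15, on chromosome 6, covered 7466, 0 and 8276 bp. The histone peaks of 7 kb or more fall in the range where scores were low in every list.

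DNA repair and replication was the list with the largest share of genes in pairs, 48 of 155 (31.0%), and all 48 pairs were in all lists. Its named pairs included DDB1/TKFC (6929, 6446 and 5684 bp), of a ubiquitin ligase adaptor for damaged DNA, and RAD1/BRIX1 (5445, 5043 and 5769 bp), of a checkpoint clamp subunit. All 35 cell cycle pairs were in all lists too. IFT80/SMC4, of a ciliary transport protein and a condensin subunit, covered 2931 bp in hairpin 1, 6637 bp in hairpin 2 and 6186 bp in the control.

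All 22 pairs of transfer RNA charging and modification were in all lists, such as YARS1/S100PBP (6207, 5635 and 4544 bp), of a transfer RNA synthetase. For RNA polymerase and transcription machinery the count was 35 of 36, the exception being the gained INTS9/HMBOX1, and for splicing 23 of 24. HNRNPA2B1/CBX3, a promoter kept free of DNA methylation and used to keep transgenes active, covered 5528 bp in hairpin 1, 7442 bp in hairpin 2 and 7756 bp in the control. SRSF2/MFSD11, of a splicing factor, covered 5075, 5472 and 7740 bp, so it was narrower with both hairpins but under 1.5-fold in hairpin 2.

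In the cytosolic ribosome list 13 of 15 pairs were in all lists. VPS52/RPS18 covered 8086 bp in hairpin 1, 3483 bp in hairpin 2 and 7645 bp in the control, at score percentiles of 3.14, 97.9 and 27.3. In this pair the widest peak had the lowest rank, and the narrowest peak had the highest.

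The list of proteasome and ubiquitin ligase genes also holds USP20, a deubiquitinase. Of its 44 pairs, 41 were in all lists and 3 were wider with both hairpins. The wider pairs were C9orf78/USP20 (7206, 7196 and 3873 bp), MST1/RNF123 (4603, 5074 and 2941 bp) and LRCH4/FBXO24. Of 21 chaperone pairs, 20 were in all lists and 2 were wider. The wider ones were DNAJC30/BUD23 (7310, 3844 and 2554 bp) and CRYAB/HSPB2 (2721, 3951 and 1371 bp), of small heat shock proteins. Among the 889 of all pairs that were in all lists, 28 were wider.

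Zinc finger and erythroid genes had shares in pairs below the 9.35% of every coding gene. Of 588 zinc finger genes 43 (7.31%) were in 35 pairs, of which 28 were in all lists, 3 were missing from hairpin 1 and 4 were in no list. Over all 978 pairs the counts were 889, 7 and 57 in the same order. ZNF571/ZNF540 covered 0, 1134 and 725 bp in hairpin 1, hairpin 2 and control. Of 57 erythroid and heme genes only UROD and UROS, enzymes of heme synthesis, were in pairs. HECTD3/UROD covered 4961, 6401 and 4387 bp and UROS/BCCIP 3299, 3000 and 3341 bp.

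**Figure D5:**
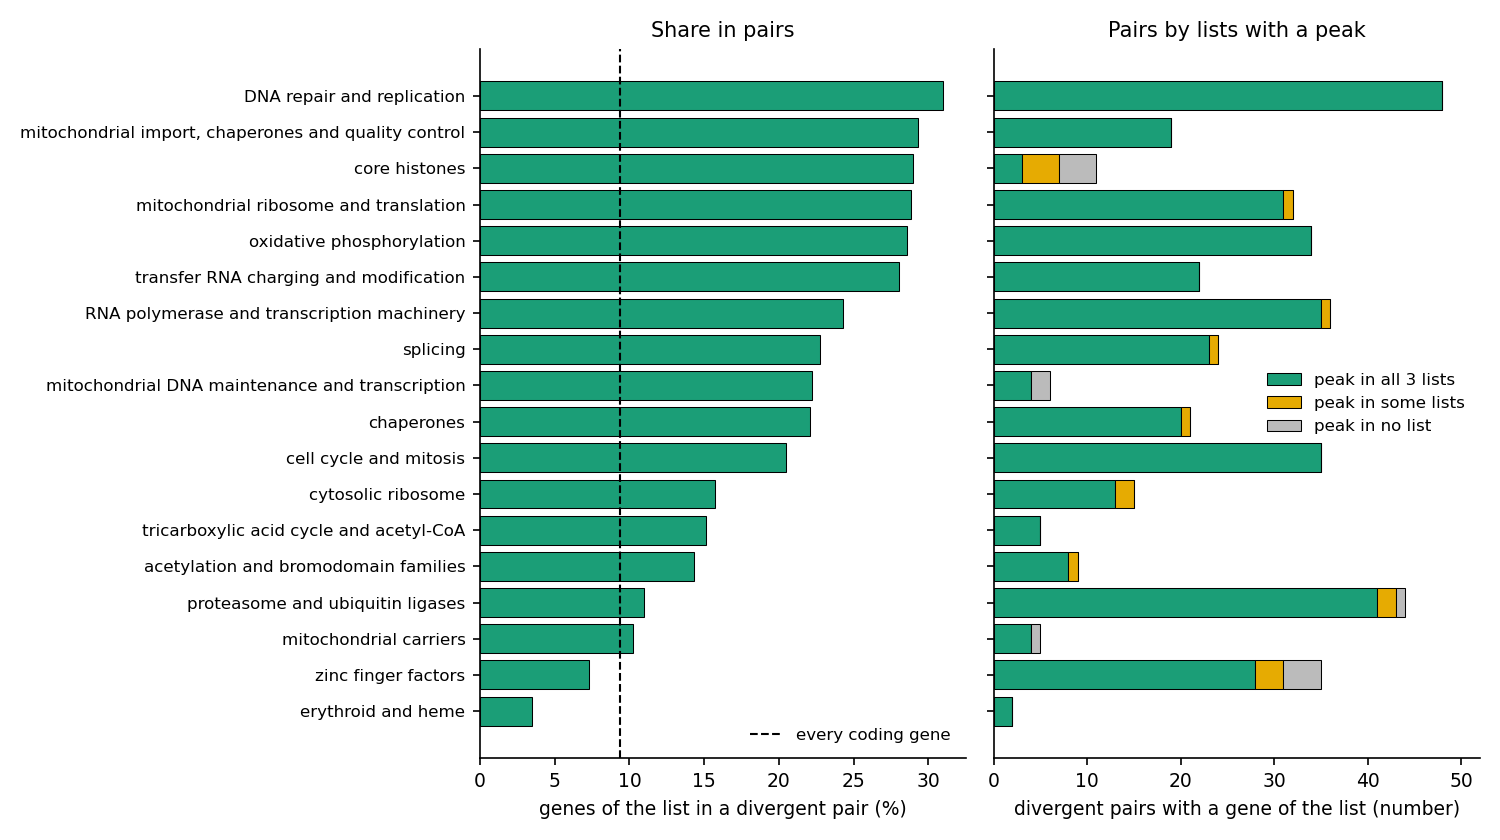
Left, percent of each list's genes that are in a divergent pair, with the share of every coding gene (9.35%) as a dashed line. Right, number of divergent pairs with a gene of the list, by whether a peak is in all 3 lists, some or none. DNA repair has 48 pairs, all in all lists, and core histones have 3 of 11.

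57 pairs (5.83%) had no peak in any list, and 43 of them lay more than 10 kb from the nearest peak of any list. DYDC1/DYDC2, with start sites 26 bp apart, lay 83883, 66654 and 83192 bp from the nearest peak of hairpin 1, hairpin 2 and control, and DCST2/DCST1, of sperm membrane proteins, lay 15108, 15400 and 15516 bp away. FAM229A/TSSK3, of a testis kinase, and PEX11A/WDR93 were also without a peak. MAN2B1/WDR83 was the closest of the 6 named pairs to a peak, at 1763, 1119 and 1835 bp.

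Among pairs in all lists the fewest covered bases were at FAM219A/DNAI1, of a dynein of motile cilia, with 1082 bp in hairpin 1, 885 bp in hairpin 2 and 595 bp in the control. This control peak ranked at the 0.177 percentile of its list. It lay 148 bp from the nearer start site, within the 500 bp added on each side. The shortest distances gave the narrowest regions. Pairs with start sites within 100 bp had median covered lengths of 2683, 2925 and 2581 bp, and pairs 501 to 1000 bp apart 3240, 3504 and 3163 bp. With the span between the start sites left out, the medians were 2639.5, 2860 and 2537.5 bp for the close pairs and 2576, 2819 and 2428 bp for the distant pairs.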

How the data were processed

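H3K27ac ChIP-seq of K562 was read from 3 deposited peak lists, 1 library each. Titles gave the groups. Per the labels' protocols, libraries came from a NEBNext kit, and reads placed uniquely in hg19 were kept. Bowtie 0.12.7, Picard and hg19 are named in the submitters' processing notes, without roles. Peak names carry a MACS prefix, per the deposited files. What the sources used here do not give is the caller's version and threshold, any use of the input, and the depth. The input library was not analysed. Each deposited score is the authors' own value per peak, at least 50, and served only for ranks.

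Pairs came from GENCODE 44 mapped to GRCh37, with canonical start sites or else the 5′ end. A pair on mitochondrial DNA was left out. Peaks overlapping by at least 1 bp were joined, covered base pairs compared as log2 ratios over control, and 1.5-fold in both hairpins called wider or narrower. Motifs were exact letters on both strands of GRCh37. The pair finder and region classes came out exact in 20 of 20 data sets each when tested on simulated data. Members, lists and rules were chosen with earlier results of these data known.

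Named pairs were up to 12 gained and 12 lost by score percentile, 8 wider, 8 narrower, 6 with most and 4 with fewest covered bases, 6 without a peak and 6 with an uncovered start site, 6 missing from each hairpin and 4 of each gene list. 3 of these pairs are not reported here. Alternatives were the higher-scoring 50%, equal list lengths, 50% overlap, merging within 1 kb, gene 5′ ends, 500 bp distance, no margin, autosomes, peaks under 5 kb, each hairpin alone and 2-fold. After seeing the data, 1 pair for each locus and isolated start sites were added. Computation ran in Python 3.11.15 with SciPy 1.17.1, numpy 2.4.6 and pandas 2.3.3, and plots were drawn with matplotlib 3.10.9.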

Additional observations from a re-analysis of the deposited data

How the results depend on the processing

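No paired analysis was possible because each group is 1 library. Across 125 recomputed main values, 89 stayed within 1.5 times the main count or within the interval of the main share or median, and 36 did not. Causes were not tested. Among the higher-scoring 50% of peaks, 29 regions were gained and 13 were wider, 90.4% were in all lists, pairs with a peak came to 87.6%, 89.1% and 86.0% (hairpin 1, hairpin 2, control), and the downstream edge outside pairs shifted by 23 bp with hairpin 1. With gene 5′ ends, 4 regions were lost and 3 narrower, 93.9% were in all lists, pairs with a peak came to 87.3%, 87.5% and 86.9%, control reach was 1325 bp, the hairpin 2 edges outside pairs shifted by 9.5 bp upstream (-2.5 bp in the main setting) and 141 bp downstream, and ETS letters were in 27.4% of windows. With start sites at most 500 bp apart, ETS letters were in 35.1% and 1 region was lost, as with autosomes alone. With peaks under 5 kb, 4 regions were gained, 1 lost, 14 wider and 0 narrower, and 97.6% were in all lists. Hairpin 1 alone gave 14 gained, 9 lost, 39 wider and 23 narrower. Hairpin 2 alone gave 8 lost, 78 wider and 6 narrower, with 97.9% present in both lists. At 2-fold 4 were wider and 0 narrower, and merging within 1 kb gave 2 narrower. No share over every region was computed for autosomes, peaks under 5 kb, merging within 1 kb or narrower at 2-fold. HSPA1L/HSPA1A and ZNF571/ZNF540 changed direction among the higher-scoring 50%, to 2956.5 and 567 bp more with the hairpins (mean) than in the control. Without depths or replicates, the precision of a peak's edge is unknown.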
